A study of Mus musculus with 12 samples.

Results

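The 10 genes described here encode Fc receptors and other membrane proteins of microglia in the mouse hippocampus. They are Fcer1g, Fcgr1, Fcgr3, Fcgr4, Fcgr2b, Milr1, Cd52, Gpr84, Hcar2 and Slc15a3, found by symbol among the 55385 genes of the deposited count table. All 10 passed the filter on low counts. They were chosen by their counts in these libraries, with the rise in 5xFAD over WT known, so that difference is given below as a description. The choice named no single pair of genotypes, so the other libraries may have entered it too.

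Hippocampi of adult mice were sequenced by RNA-seq, with 3 libraries for each of 4 genotypes. Kcnip3 KO-5xFAD mice lacked Kcnip3 (Kcnip3 -/-) and carried the 5XFAD transgenes, 5xFAD mice carried the transgenes with Kcnip3 intact, Kcnip3 KO mice lacked Kcnip3 only, and WT mice had neither change. 5xFAD mice carry mutant human amyloid precursor protein and presenilin transgenes under Thy1 sequences, which are active in neurons, and they form amyloid plaques. Kcnip3 encodes KChIP3, a neuronal calcium-binding protein. Neither an age in numbers nor the number of animals behind a group was stated in the labels, so p-values measure the spread between these libraries, which may be technical.

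Fc gamma receptors bind the constant part of IgG antibodies on the surface of phagocytes. The activating receptors signal through FcRgamma, a small chain encoded by Fcer1g that carries an activation motif (ITAM), while FcgammaRIIb, encoded by Fcgr2b, carries an inhibitory motif (ITIM) of its own. In the brain these receptors are found mainly on microglia, which raise many of them when they gather around amyloid plaques.

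Fcer1g (ENSMUSG00000058715) lies on chromosome 1 at 171229572 to 171234365, minus strand, in GRCm38. Fcgr3 (ENSMUSG00000059498, 171051174 to 171064935, minus strand), Fcgr4 (ENSMUSG00000059089, 171018920 to 171029761, plus strand) and Fcgr2b (ENSMUSG00000026656, 170958617 to 170976547, minus strand) lie beside it on chromosome 1. Fcgr1 (ENSMUSG00000015947) lies on chromosome 3 at 96282909 to 96293969, minus strand. Milr1 (ENSMUSG00000040528) lies on chromosome 11 at 106751226 to 106768794, plus strand, and Cd52 (ENSMUSG00000000682) on chromosome 4 at 134082448 to 134095082, minus strand. Gpr84 (ENSMUSG00000063234) lies on chromosome 15 at 103308235 to 103310612, minus strand, and Hcar2 (ENSMUSG00000045502) on chromosome 5 at 123863570 to 123865499, minus strand. Slc15a3 (ENSMUSG00000024737) lies on chromosome 19 at 10839727 to 10859362, plus strand. Fcgr2b and Fcgr3 share 166 stretches of 50 bases, 9.58% of those in Fcgr3 and 2.92% of those in Fcgr2b, so reads from there cannot be assigned to either gene. The other pairs among the 10 genes share no stretch of that length. Exons of Slc15a3 overlap those of Tmem132a on the opposite strand over 1541 bases, and Tmem132a held 17816 counts over the 12 libraries. Smaller overlaps of this kind are those of Cd52 with Crybg2 over 172 bases, Milr1 with Polg2 over 132 bases, Gpr84 with Gm49482 over 681 bases and Fcgr2b with Gm38204 over 155 bases. With the strand setting of the counting not given in the sources used here, reads from these overlaps cannot be told apart.

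Promoter sequences from RefSeq on GRCm38.p6, each running from 250 bases before a gene's start to 50 after it, were matched by symbol for 7 of the 10 genes. They had no entry for Cd52, Hcar2 and Slc15a3. Because the 10 genes moved together across the libraries, the windows were searched on both strands for the core site of PU.1, the transcription factor that defines the myeloid lineage, and for GAS and ISRE, the sites through which interferons act. The PU.1 core GAGGAA, which reads TTCCTC on the other strand, was in 4 of the 7, namely Fcgr1, Fcgr3, Fcgr4 and Milr1, and in 31.3% of the 27025 genes of the table. GAS (TTCNNNGAA) was in Fcgr1 and in 9.55% of all genes, and the ISRE core, a GAAA, any 2 bases and another GAAA, was in Fcgr4 and in 3.99% of all genes. The 4 promoters with a PU.1 core are shown because 3 of them, those of the activating receptors, hold it just upstream of the start, on the minus strand of the gene. The core begins 55 bases before the start in Fcgr1, 6 bases before it in Fcgr3, 22 bases before it in Fcgr4 and 11 bases after it in Milr1. A further RefSeq window of Fcgr3, not shown, has its own start, with the same core at base -15 from it. Each sequence below runs 5′ to 3′ along the gene, from 120 bases before the start to 30 after it, and the capitals mark the core. The windows are chr3:96293940-96294089 (minus strand) for Fcgr1, chr1:171059374-171059523 (minus strand) for Fcgr3, chr1:171018806-171018955 (plus strand) for Fcgr4 and chr11:106751106-106751255 (plus strand) for Milr1.
Fcgr1: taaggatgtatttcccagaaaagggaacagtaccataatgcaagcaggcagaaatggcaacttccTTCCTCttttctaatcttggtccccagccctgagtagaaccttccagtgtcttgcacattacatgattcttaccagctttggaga
Fcgr3: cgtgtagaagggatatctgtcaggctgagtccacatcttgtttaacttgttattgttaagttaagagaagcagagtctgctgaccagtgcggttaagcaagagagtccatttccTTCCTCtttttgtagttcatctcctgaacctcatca
Fcgr4: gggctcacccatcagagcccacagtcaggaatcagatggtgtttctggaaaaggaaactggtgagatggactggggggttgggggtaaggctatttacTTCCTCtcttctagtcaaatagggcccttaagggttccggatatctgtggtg
Milr1: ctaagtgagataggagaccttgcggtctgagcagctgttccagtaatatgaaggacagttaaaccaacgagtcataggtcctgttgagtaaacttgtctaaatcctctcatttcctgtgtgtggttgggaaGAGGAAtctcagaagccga

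The libraries held 7664407 to 11310714 counts, so 3 counts corresponded to 0.265 to 0.391 CPM, which is the count scaled to the library total, and 15905 genes were tested. Levels below are CPM after TMM scaling, a normalisation between libraries, unless TPM, which also divides by gene length, is named. Kcnip3 stood at 84.9, 68.7 and 70.1 CPM in Kcnip3 KO-5xFAD, 139, 156 and 138 CPM in 5xFAD, 71.4, 63.4 and 125 CPM in Kcnip3 KO, and 160, 158 and 162 CPM in WT. Counts of Kcnip3 thus remained in every knockout library, and the library labelled Kcnip3 KO 3 lay between the other knockouts and the intact libraries. Thy1, which the transgene cassettes share, stood at 3381, 926 and 2592 CPM in Kcnip3 KO-5xFAD, 2870, 4236 and 2949 CPM in 5xFAD, 749, 792 and 868 CPM in Kcnip3 KO, and 747, 887 and 2277 CPM in WT. By this gene the library labelled Kcnip3 KO-5xFAD 2 resembled the libraries labelled without the transgenes, and the library labelled WT 3 approached those labelled with them. Results are therefore also given without these 2 libraries, a choice made after seeing the data. Earlier results had shown their microglial levels too, so calls without them are not independent support.

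Fcer1g was the most abundant of the 10 genes per length in 5xFAD. In deposited TPM it averaged 98.5 ± 44.8 in Kcnip3 KO-5xFAD, 141 ± 5.93 in 5xFAD, 35.1 ± 4.92 in Kcnip3 KO and 49.4 ± 21.9 in WT (SD, n = 3 each). Its levels were 36.4, 13.6 and 29.0 CPM in Kcnip3 KO-5xFAD, 35.8, 45.2 and 40.2 CPM in 5xFAD, 7.63, 8.34 and 10.8 CPM in Kcnip3 KO, and 7.98, 11.2 and 18.5 CPM in WT. Every 5xFAD library lay above every WT library, and the low Kcnip3 KO-5xFAD 2 still lay above every Kcnip3 KO library.

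Fcgr3, which encodes the low-affinity activating IgG receptor, stood at 52.3, 20.9 and 51.6 CPM in Kcnip3 KO-5xFAD, 61.6, 65.4 and 54.1 CPM in 5xFAD, 16.3, 15.3 and 18.99 CPM in Kcnip3 KO, and 17.3, 17.0 and 32.5 CPM in WT. Fcgr1, which encodes the high-affinity IgG receptor, stood at 18.3, 4.67 and 10.6 CPM in Kcnip3 KO-5xFAD, 15.4, 13.5 and 12.9 CPM in 5xFAD, 4.08, 4.95 and 4.26 CPM in Kcnip3 KO, and 4.57, 5.21 and 7.31 CPM in WT. For Fcgr1 the library Kcnip3 KO-5xFAD 2 lay inside the range of Kcnip3 KO, whereas for Fcgr3 it lay just above that range. Fcgr4, which encodes an activating receptor for mouse IgG2a and IgG2b, had the lowest mean CPM of the 10 genes in Kcnip3 KO-5xFAD and 5xFAD, whereas Hcar2 had the lowest in Kcnip3 KO and WT. Fcgr4 had 16, 1 and 10 counts in Kcnip3 KO-5xFAD, 13, 8 and 12 counts in 5xFAD, 3, 2 and 3 counts in Kcnip3 KO, and 2, 3 and 10 counts in WT. Its WT 3 level of 1.04 CPM almost reached the lowest 5xFAD level of 1.09 CPM.

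Fcgr2b, the inhibitory IgG receptor, stood at 26.8, 4.22 and 15.3 CPM in Kcnip3 KO-5xFAD, 23.1, 19.1 and 22.5 CPM in 5xFAD, 4.39, 4.11 and 5.52 CPM in Kcnip3 KO, and 5.74, 4.68 and 11.2 CPM in WT. The 3 Kcnip3 KO-5xFAD libraries were further apart for Fcgr2b than the 3 of 5xFAD, with an SD of 11.3 against 2.15 CPM, as held for each of the 10 genes. Milr1, which encodes Allergin-1, an ITIM receptor first described on mast cells, stood at 3.10, 0.667 and 1.96 CPM in Kcnip3 KO-5xFAD, 3.56, 3.40 and 2.99 CPM in 5xFAD, 0.627, 0.483 and 0.345 CPM in Kcnip3 KO, and 0.532, 0.319 and 1.25 CPM in WT. The 5xFAD libraries of Milr1 did not overlap with those of WT, as held for 10 of the 10 genes and for 13.7% of all genes higher in 5xFAD.

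Cd52, a short GPI-anchored glycoprotein of leukocytes, stood at 10.8, 1.44 and 9.70 CPM in Kcnip3 KO-5xFAD, 13.5, 17.0 and 10.7 CPM in 5xFAD, 0.523, 2.05 and 0.806 CPM in Kcnip3 KO, and 2.34, 1.60 and 3.24 CPM in WT. Kcnip3 KO-5xFAD 2 lay within the range of Kcnip3 KO for this gene, while the other Kcnip3 KO-5xFAD libraries lay far above it. Gpr84, a receptor for medium-chain fatty acids, had 27, 2 and 14 counts in Kcnip3 KO-5xFAD, 19, 25 and 42 counts in 5xFAD, 2, 5 and 4 counts in Kcnip3 KO, and 3, 8 and 4 counts in WT. Hcar2, the receptor for niacin and beta-hydroxybutyrate, had 26, 0 and 16 counts in Kcnip3 KO-5xFAD, 31, 28 and 30 counts in 5xFAD, 1, 3 and 2 counts in Kcnip3 KO, and 0, 2 and 12 counts in WT. For Gpr84 and Hcar2 the libraries without the transgenes, apart from WT 3 for Hcar2, held 8 counts or fewer, so differences among them were not detectable at this depth.

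Slc15a3, a transporter of histidine and small peptides in the membrane of lysosomes and endosomes, stood at 17.1, 3.00 and 11.7 CPM in Kcnip3 KO-5xFAD, 11.4, 18.4 and 16.9 CPM in 5xFAD, 2.51, 2.78 and 2.42 CPM in Kcnip3 KO, and 1.81, 2.66 and 5.74 CPM in WT. The 3 Kcnip3 KO libraries were close together, and Kcnip3 KO-5xFAD 2 lay just above them. With all 12 libraries the means of all 10 genes stood in the same order, with 5xFAD highest, then Kcnip3 KO-5xFAD, WT and Kcnip3 KO. Without Kcnip3 KO-5xFAD 2 and WT 3 that order changed for Fcgr1, at 14.4 CPM in Kcnip3 KO-5xFAD and 13.9 CPM in 5xFAD, and for Fcgr4, at 1.501 CPM in Kcnip3 KO-5xFAD and 1.29 CPM in 5xFAD. Kcnip3 KO then lay above WT for Fcgr4, Milr1, Hcar2 and Slc15a3. The neighbours 5xFAD and Kcnip3 KO-5xFAD, and the neighbours WT and Kcnip3 KO, did not pass edgeR's test for any of the 10 in either fit.

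**Figure D1:**
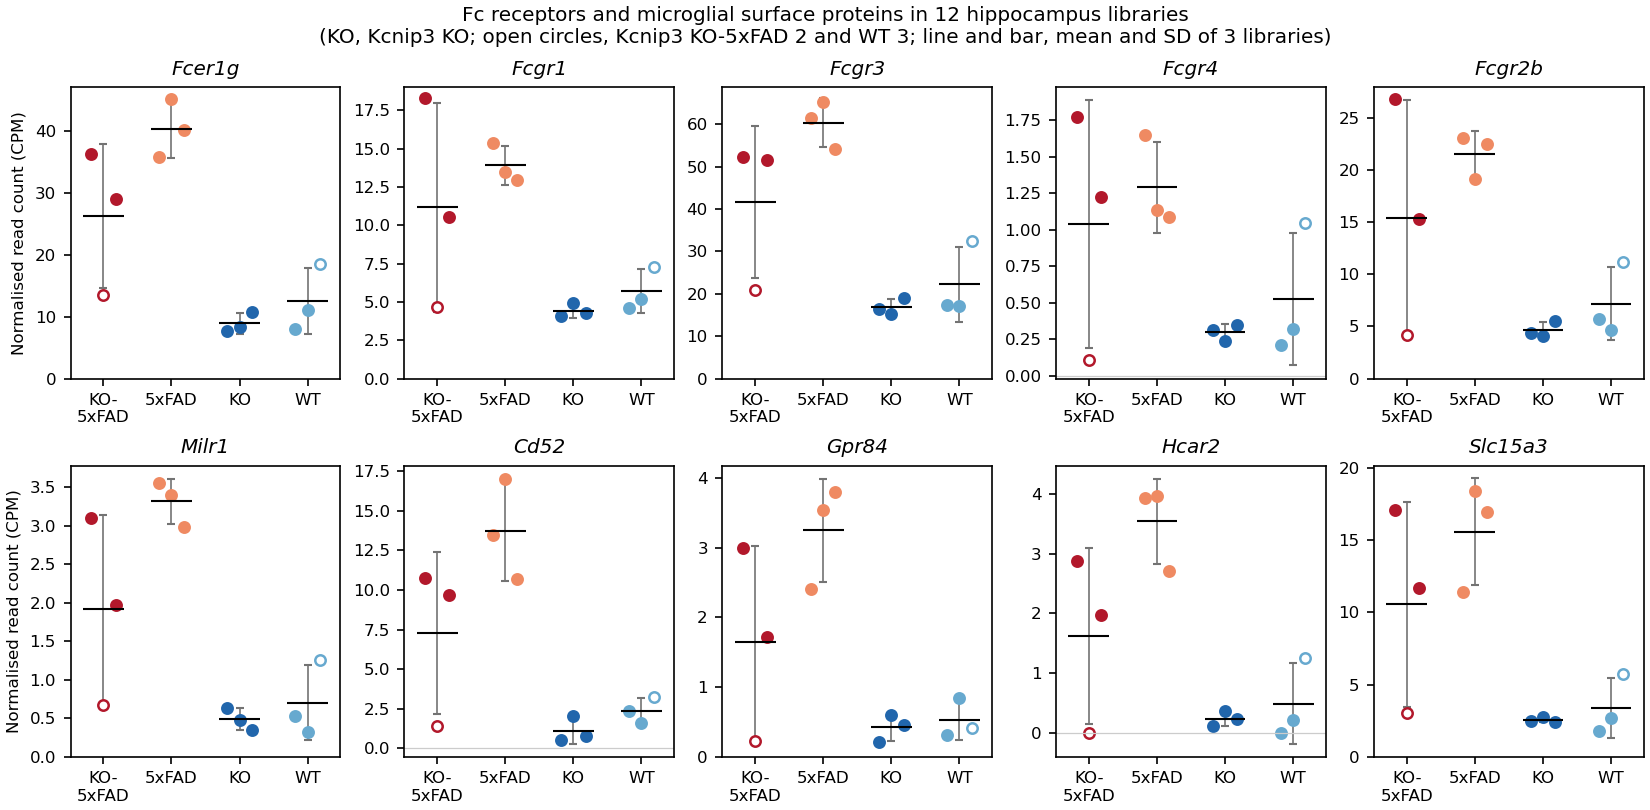
Normalised read count (CPM, linear axes) of each of the 10 genes in every library, with Kcnip3 KO-5xFAD and 5xFAD left of Kcnip3 KO and WT; the line and bar are the mean and SD of 3 libraries, and the open circles are Kcnip3 KO-5xFAD 2 and WT 3. All 3 libraries of 5xFAD lie above all 3 of WT in each of the 10 panels, and Kcnip3 KO-5xFAD 2 is the lowest of its group in each.

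The departure of WT 3 and of Kcnip3 KO-5xFAD 2 from their labels differed in size between the genes. WT 3 was the highest of the WT libraries for 9 of the 10 genes, and the exception was Gpr84, where it held 4 counts. It was below the lowest 5xFAD library for 10 of 10. As a share of the 5xFAD mean, WT 3 reached 80.9% for Fcgr4, 53.8% for Fcgr3, 52.5% for Fcgr1, 51.7% for Fcgr2b and 45.7% for Fcer1g. The share was 37.8% for Milr1, 36.8% for Slc15a3, 35.4% for Hcar2, 23.6% for Cd52 and 12.8% for Gpr84, against 67.9% for Thy1. The Fc receptor genes in WT 3 thus stood nearer to the 5xFAD level than Cd52 and Gpr84 did. Kcnip3 KO-5xFAD 2 was the lowest of its group for 10 of 10 genes, and for 4 of them, Fcgr1, Fcgr2b, Cd52 and Gpr84, it fell inside the range of Kcnip3 KO. It lay below that range for Fcgr4 and Hcar2, at 1 and 0 counts, and above it for Fcer1g, Fcgr3, Milr1 and Slc15a3. Of the other Kcnip3 KO-5xFAD libraries, number 3 was below number 1 for 10 of 10 genes, at 0.572 times its level for Fcgr2b and 0.985 times for Fcgr3.

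The transgenes were compared on the Kcnip3 KO background, between the means of 6 libraries whose means the comparison of 5xFAD with WT does not use. The spread was estimated from all 12 libraries for both comparisons. Whether these libraries also entered the choice of the genes is not known, so calls here are not independent support. The 10 genes were higher in Kcnip3 KO-5xFAD than in Kcnip3 KO by a median log2 fold change of 1.84, with a range of 1.30 for Fcgr3 to 2.75 for Hcar2, but none passed edgeR's quasi-likelihood test with Benjamini-Hochberg adjustment over all genes. In that fit 0.0% of the 15905 genes tested were called, and 1657 had an unadjusted p under 0.05. All 10 genes were among these 1657, with adjusted p of 0.251 for Fcer1g and Cd52 up to 0.464 for Fcgr4. The median over all tested genes was 0.00 to 2 decimals, and 49.8% of genes were above 0. For 4 of the 10 genes the 3 Kcnip3 KO-5xFAD libraries did not overlap with the 3 Kcnip3 KO libraries, against 8.37% of all genes. DESeq2 called 5 of the 10 genes higher at an adjusted p under 0.05, against 0.698% of all genes, and edgeR with no filter on low counts called 9, against 1.32%. The fit with no filter called more genes in every contrast than the filtered fit. In Kcnip3 KO against WT it called 203 genes higher and 121 lower, against 4 and 4 with the filter. Its calls are therefore not taken as support.

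Without Kcnip3 KO-5xFAD 2 and WT 3, all 10 genes were called higher in Kcnip3 KO-5xFAD (n = 2) than in Kcnip3 KO (n = 3), against 1.29% of the 16076 genes then tested. Their median log2 fold change was 2.31, from 1.62 ± 0.13 (SE) for Fcgr3, with an adjusted p of 2.35e-05 by edgeR, to 3.34 ± 0.58 for Hcar2, with an adjusted p of 0.00758. Fcer1g rose by 1.87 ± 0.19 (adjusted p = 0.000158, edgeR), Fcgr2b by 2.17 ± 0.24 (adjusted p = 0.000221) and Cd52 by 3.20 ± 0.39 (adjusted p = 0.000512). Slc15a3 rose by 2.48 ± 0.27, Milr1 by 2.35 ± 0.42, Gpr84 by 2.47 ± 0.53, Fcgr1 by 1.71 ± 0.24 and Fcgr4 by 2.27 ± 0.51 on the log2 scale, and the largest adjusted p by edgeR was 0.0438, for Fcgr4. The groups did not overlap for 10 of 10 genes, against 14.1% of all genes. Leaving out Kcnip3 KO-5xFAD 2 alone gave 8 calls, against 1.17% of all genes. Leaving out Kcnip3 KO 3, the knockout library with the higher Kcnip3, gave 0 calls and log2 fold changes of 1.31 to 2.76. In that fit 0.0% of the 16213 genes tested were called higher. No fit left out both Kcnip3 KO 3 and Kcnip3 KO-5xFAD 2, so whether the calls above depended on Kcnip3 KO 3 was not tested.

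5xFAD against WT was taken as the difference by which the genes were chosen, and its values are a description. The log2 fold changes were 1.68 for Fcer1g, 1.43 for Fcgr3, 1.28 for Fcgr1, 1.26 for Fcgr4 and 1.58 for Fcgr2b. They were 2.21 for Milr1, 2.50 for Cd52, 2.60 for Gpr84, 2.80 for Hcar2 and 2.19 for Slc15a3. Without Kcnip3 KO-5xFAD 2 and WT 3 the median moved to 2.33, against 1.94 with all 12 libraries. The smallest value was then 1.505 for Fcgr1 and the largest 4.87 for Hcar2, whose remaining WT libraries held 0 and 2 counts.

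Loss of Kcnip3 was compared on each background. With all 12 libraries Kcnip3 itself was at 0.52 times its 5xFAD level in Kcnip3 KO-5xFAD (log2 -0.95 ± 0.20, adjusted p = 0.245, edgeR). It was at 0.54 times its WT level in Kcnip3 KO (log2 -0.88 ± 0.20, adjusted p = 0.449, edgeR). The knocked-out gene was thus called in neither comparison, so a gene not called is not shown to be unchanged. In Kcnip3 KO-5xFAD against 5xFAD, the 10 genes were below 0 with all 12 libraries, as were 50.8% of all genes, with a median log2 difference of -0.59 and none called, against 0.0314% of all genes higher and 0.0377% lower. The differences ran from -0.30 ± 0.62 for Fcgr4 to -1.12 ± 0.78 for Hcar2, with adjusted p of 0.53 to 0.874 by edgeR. With no filter on low counts, edgeR called 3 of the 10 lower, Fcer1g, Fcgr3 and Cd52, against 0.475% of all genes. That fit called 200 of all genes higher and 151 lower, against 5 and 6 with the filter. No other setting called any of the 10 in this comparison. The fit with no filter was not run without Kcnip3 KO-5xFAD 2, so whether these 3 calls depended on that library was not tested. With the filter, and without Kcnip3 KO-5xFAD 2 and WT 3, the median was -0.26. Of the 10 genes 8 were then below 0, as were 49.9% of all genes, and the range ran from -0.52 for Hcar2 to 0.23 for Fcgr4. Again none was called, against 0.0311% of all genes higher and 0.00622% lower. For Fcer1g the difference was then -0.30, with a 95% interval of -0.70 to 0.09, and for Fcgr3 it was -0.21, with an interval of -0.49 to 0.06. For Fcgr2b it was -0.03, with an interval of -0.51 to 0.44, and for Cd52 it was -0.41, with an interval of -1.09 to 0.27. A fall of 1 log2 unit lay outside these intervals for Fcer1g, Fcgr3 and Fcgr2b, but inside that for Cd52. It also lay outside those of Fcgr1, Fcgr4 and Slc15a3. It lay inside those of Milr1 (-1.10 to 0.36), Gpr84 (-1.35 to 0.42) and Hcar2 (-1.40 to 0.35). This fit leaves out Kcnip3 KO-5xFAD 2, the lowest library of its group for each of the 10 genes. With all 12 libraries a fall of 1 log2 unit lay inside the intervals of all 10 genes. Examples were -1.34 to 0.099 for Fcer1g, -1.24 to 0.17 for Fcgr3, -1.58 to 0.61 for Fcgr2b and -2.06 to 0.25 for Cd52.

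In Kcnip3 KO against WT none of the 10 genes was called, at an adjusted p of 0.999 for each by edgeR, and 0 of the 10 had an unadjusted p under 0.05. Over all genes 0.0251% were called higher and 0.0251% lower. All 10 differences were below 0 with the 12 libraries, as were 49.6% of all genes, with a median of -0.50. Without Kcnip3 KO-5xFAD 2 and WT 3 the median was -0.06, with 6 genes below 0, as were 48.0% of all genes, and 4 above; none was called, against 0.0249% of all genes higher and 0.0187% lower. The extremes were then -0.83, with a 95% interval of -1.85 to 0.19, for Cd52, and 1.00, with an interval of -1.38 to 3.379, for Hcar2. For Fcgr3, the most precisely measured, the difference was -0.02, with an interval of -0.33 to 0.28. This comparison shares the WT libraries with 5xFAD against WT, and Kcnip3 KO-5xFAD against 5xFAD shares the 5xFAD libraries with it.

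The interaction, which asks whether the 5xFAD difference itself changed with loss of Kcnip3, was not called for any of the 10 genes, nor were any of all genes higher (0.0%) or lower (0.0%). With all 12 libraries it ran from -0.65 for Gpr84 to 0.48 for Fcgr4, and the smallest adjusted p was 0.917. Without the 2 libraries 0.00622% of all genes were called higher and 0.0% lower, none of them among the 10, and the interval was -0.59 to 0.22 for Fcgr3 and -0.80 to 0.40 for Fcer1g, but -4.03 to 0.99 for Hcar2. An unequal response of Hcar2, Gpr84, Fcgr4 or Milr1 between the backgrounds was not detectable at this depth.

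**Figure D2:**
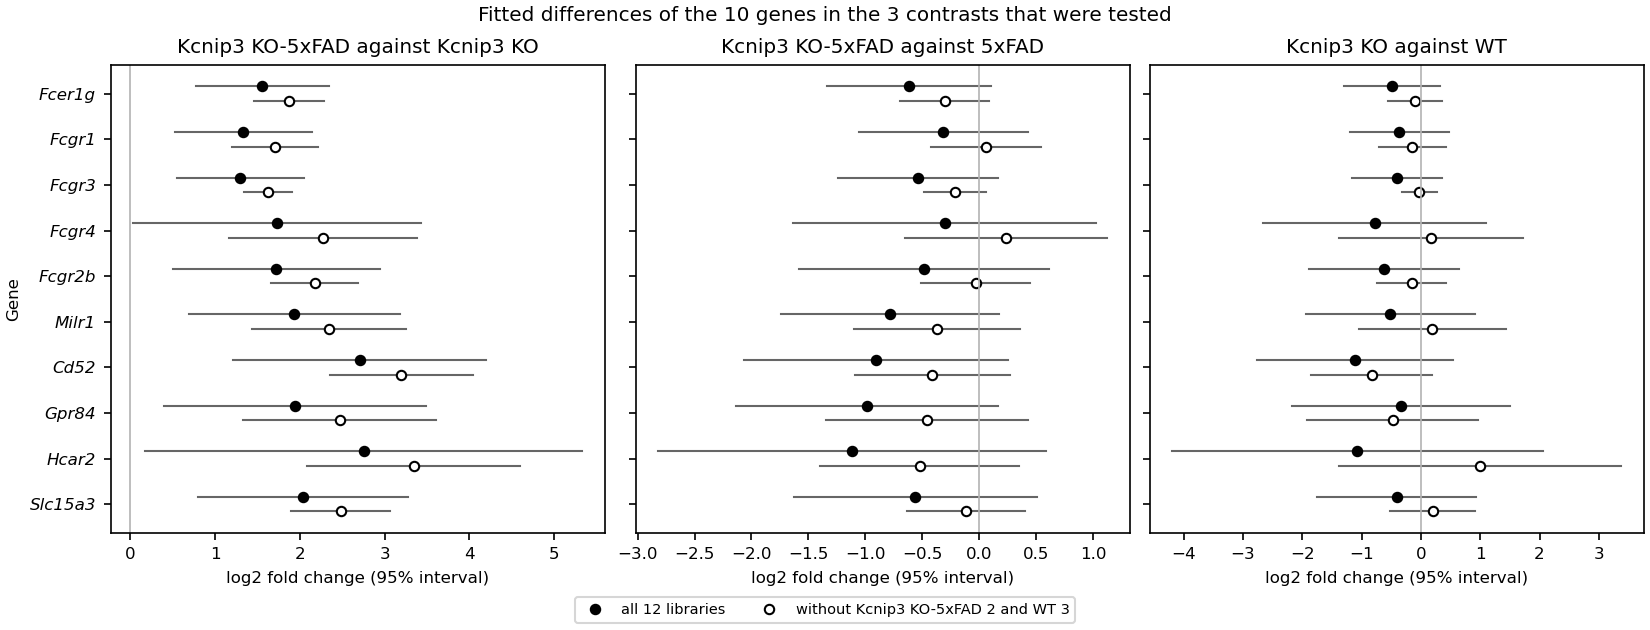
Fitted log2 fold change of each gene with its 95% interval in Kcnip3 KO-5xFAD against Kcnip3 KO, Kcnip3 KO-5xFAD against 5xFAD, and Kcnip3 KO against WT, with all 12 libraries (filled) and without Kcnip3 KO-5xFAD 2 and WT 3 (open). The left panel lies above 0 for all 10 genes in both fits, and intervals in the other panels include 0.

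Among the Fc gamma receptors the mixture differed less than the total. In deposited TPM the 3 activating receptors summed to 127, 44.4 and 116 in Kcnip3 KO-5xFAD, 141, 124 and 115 in 5xFAD, 40.1, 38.9 and 42.5 in Kcnip3 KO, and 41.5, 40.9 and 78.5 in WT. Fcgr3 made up 77.6% to 84.9% of that sum in Kcnip3 KO-5xFAD, 82.6% to 85.6% in 5xFAD, 79.1% to 83.5% in Kcnip3 KO and 79.7% to 82.8% in WT, so the groups overlapped. Without WT 3, whose share was 82.8%, 5xFAD and WT did not. Fcgr2b amounted to 11.98%, 5.36% and 7.65% of the activating sum in Kcnip3 KO-5xFAD, 9.35%, 7.58% and 10.5% in 5xFAD, 6.86%, 6.60% and 7.49% in Kcnip3 KO, and 8.37%, 6.80% and 8.65% in WT. These ranges overlapped between 5xFAD and WT and between Kcnip3 KO-5xFAD and Kcnip3 KO. Without Kcnip3 KO-5xFAD 2, at 5.36%, both Kcnip3 KO-5xFAD libraries lay above the 3 of Kcnip3 KO. The ratio of Fcer1g to the activating sum was 0.9504 to 1.10 in Kcnip3 KO-5xFAD, 0.956 to 1.24 in 5xFAD, 0.774 to 0.953 in Kcnip3 KO and 0.762 to 1.05 in WT. Deposited TPM was above 0 for Hcar2 where the count was 0, so TPM of rare genes such as Fcgr4 holds an offset.

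**Figure D3:**
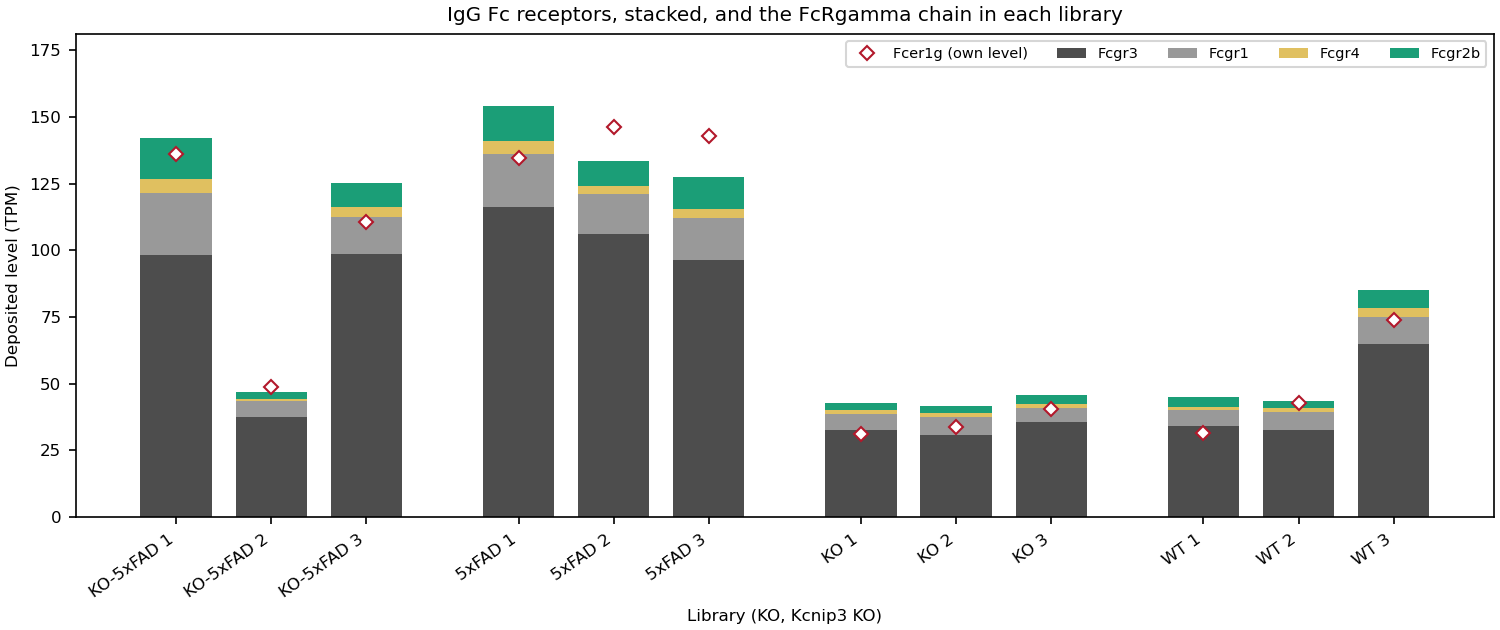
Deposited TPM of the IgG Fc receptors Fcgr3, Fcgr1, Fcgr4 and Fcgr2b, stacked, and of Fcer1g (diamonds) in each library, with Kcnip3 KO-5xFAD and 5xFAD left of Kcnip3 KO and WT. Fcgr3 is the largest part in all 12 bars, and the bars of Kcnip3 KO-5xFAD 2 and WT 3 stand apart from their groups.

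A panel of 9 microglial genes outside the set (Csf1r, Cx3cr1, P2ry12, Tmem119, Aif1, Itgam, Siglech, Gpr34 and Sall1) summed to 582.5, 302.3 and 437.3 CPM in Kcnip3 KO-5xFAD, 524.5, 560.6 and 499.4 CPM in 5xFAD, 260.9, 282.0 and 287.4 CPM in Kcnip3 KO, and 262.4, 251.1 and 345.1 CPM in WT. None of the panel was at 0, and it moved with the 10 genes, Kcnip3 KO-5xFAD 2 and WT 3 included. In bulk tissue fewer cells of a type and less RNA per cell cannot be told apart, and the part of microglial number in the results was not tested. As a share of the panel, the 10 genes were compared between libraries with and without the transgenes. Without Kcnip3 KO-5xFAD 2 and WT 3, Fcer1g amounted to 6.24% to 8.07% of the panel's CPM in the 5 libraries labelled with the transgenes and 2.93% to 4.45% in the 5 without. The ranges with and without the transgenes were 1.85% to 3.04% and 0.2004% to 0.892% for Cd52, and 2.18% to 3.39% and 0.689% to 1.06% for Slc15a3. They were 0.449% to 0.751% and 0.0% to 0.129% for Hcar2, which had the widest gap in proportion. The gap was narrowest for Fcgr1, at 2.403% to 3.14% and 1.48% to 2.08%, and for Gpr84, at 0.393% to 0.761% and 0.0802% to 0.339%. The 5 libraries with the transgenes lay above the 5 without for 10 of the 10 genes, against 0.585% of all genes. With all 12 libraries, 6 against 6, this held for 0 of the 10, against 0.0503% of all genes. These shares are a description, since they include the 5xFAD and WT libraries by which the genes were chosen. Set against these ranges, Kcnip3 KO-5xFAD 2 lay inside that of the libraries without the transgenes for Cd52, at 0.478% of the panel, and also for Fcgr1, Milr1, Hcar2 and Slc15a3. It lay below that range for Fcgr2b, Fcgr4 and Gpr84, and above it for Fcer1g and Fcgr3. WT 3 lay inside the range of the libraries with the transgenes for Fcgr3, at 9.41%, and for Fcgr4, at 0.303%.

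**Figure D4:**
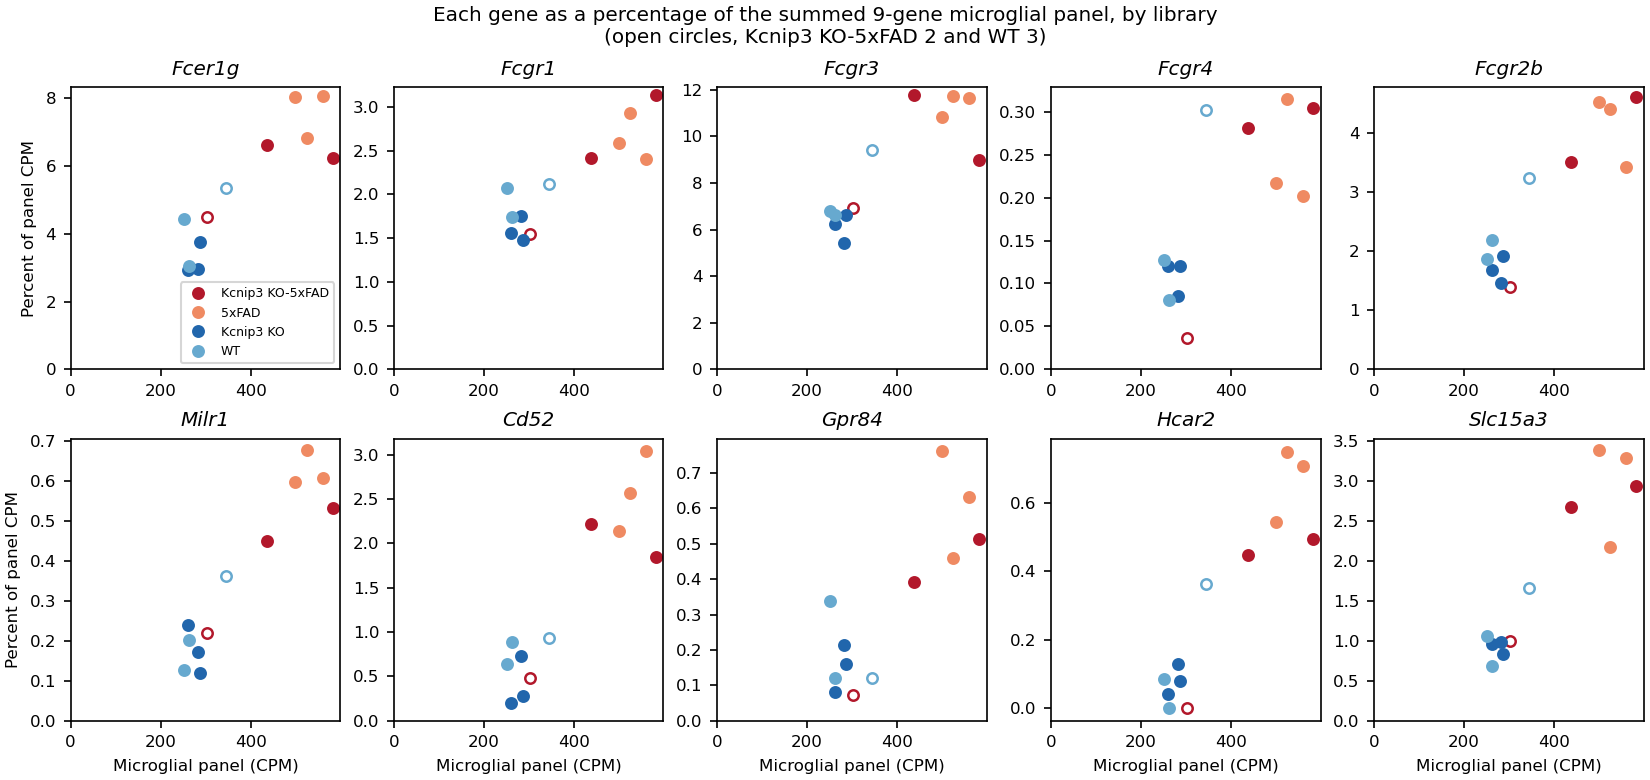
Each gene as a percentage of the summed CPM of a 9-gene microglial panel (vertical axis) against that sum (horizontal axis, CPM), 1 point per library coloured by genotype, with Kcnip3 KO-5xFAD 2 and WT 3 open. Filled points of Kcnip3 KO-5xFAD and 5xFAD lie above those of Kcnip3 KO and WT in every panel, while the open points lie among, between or below them.

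Markers of other cells that carry Fc receptors or could be in the tissue were summed in the same way. Monocyte markers summed to at most 1.60 CPM and neutrophil markers to at most 6.65 CPM in any library. Mast cell markers, where Milr1 and Fcer1g are classically found, summed to at most 1.35 CPM, and Fcer1a, which encodes the IgE-binding chain, was at 0 in all 12 libraries. The 8 T and NK cell markers, of which 0 to 4 were at 0 in a library, summed to 6.43, 4.001 and 5.16 CPM in Kcnip3 KO-5xFAD, 7.49, 5.25 and 5.16 CPM in 5xFAD, 3.76, 4.83 and 3.68 CPM in Kcnip3 KO, and 4.04, 4.89 and 5.43 CPM in WT. They were thus, without Kcnip3 KO-5xFAD 2 and WT 3, higher in every library with the transgenes than in any without, as the 10 genes were, and their part in the results was not tested. B cell markers lay between 26.9 and 49.9 CPM in Kcnip3 KO-5xFAD, 38.4 and 46.5 CPM in 5xFAD, 16 and 38.2 CPM in Kcnip3 KO, and 24.7 and 71.5 CPM in WT, with no order that followed the transgenes. Border macrophage markers lay between 34.7 and 48.0 CPM in Kcnip3 KO-5xFAD, 27.7 and 46.1 CPM in 5xFAD, 35.2 and 38.7 CPM in Kcnip3 KO, and 37.6 and 60.2 CPM in WT. Choroid plexus markers stood at 361.1, 401.6 and 4392 CPM in Kcnip3 KO-5xFAD, 6080, 219.8 and 8934 CPM in 5xFAD, 3926, 2986 and 4520 CPM in Kcnip3 KO, and 3278, 3854 and 99.96 CPM in WT, so Kcnip3 KO held none of the low libraries. Markers of hippocampal neurons lay between 2668 and 2878 CPM in Kcnip3 KO-5xFAD, 2421 and 2564 CPM in 5xFAD, 2690 and 3182 CPM in Kcnip3 KO, and 3119 and 3201 CPM in WT. The part of choroid plexus and neuronal content in the results was not tested.

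Genes of related pathways were counted in lists chosen with earlier results of these data known. In Kcnip3 KO-5xFAD against Kcnip3 KO, where no gene was called with all 12 libraries, the counts come from the fit without Kcnip3 KO-5xFAD 2 and WT 3, in which 1.29% of genes were called higher. None of any list was called lower there. In Kcnip3 KO-5xFAD against 5xFAD and in Kcnip3 KO against WT, no gene of the lists was called in either fit.

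Of 15 Fc receptors and relatives other than the 10 genes, 5 were tested in that fit and 1 rose, namely Fcrls, a receptor-like gene of microglia, by 1.26 ± 0.14 on the log2 scale (adjusted p = 0.000308, edgeR). With all 12 libraries its value was 1.03 ± 0.25 (adjusted p = 0.251, edgeR). Fcgrt, the neonatal Fc receptor, had a difference of 0.33 ± 0.13 without the 2 libraries and 0.37 ± 0.13 with all 12, and passed in neither. Of 6 tested receptors and adaptors that pair with FcRgamma or DAP12, 3 rose. Trem2, a lipid-sensing receptor, rose by 2.74 ± 0.20, its adaptor Tyrobp (DAP12) by 2.57 ± 0.20 and Siglech, also in the microglial panel, by 1.22 ± 0.16. With all 12 libraries Trem2 was at 2.27 ± 0.68 and Tyrobp at 2.15 ± 0.58.

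Downstream signalling was split. Of 29 tested genes of Fc receptor signalling, 6 rose without the 2 libraries, with a list median of 0.71, against a median of -0.01 for all genes. The 4 with the smallest p were Ptpn6, the phosphatase SHP-1 that ITIMs recruit (1.90 ± 0.17), Rac2, a GTPase of phagocytes (1.56 ± 0.24), Lat2, an adaptor (1.55 ± 0.27), and Inpp5d, the lipid phosphatase SHIP1 that Fcgr2b recruits (0.94 ± 0.17). The most abundant genes of the list, which neurons also express, had small differences, at 0.03 ± 0.13 for Fyn and -0.25 ± 0.14 for Ptpn11, and neither passed. In the fit of all 12 libraries these were 0.00 ± 0.11 and -0.26 ± 0.12.

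Of 12 tested inhibitory receptors with ITIMs, 2 rose. Lilrb4a rose by 3.62 ± 0.64, with 2.47 CPM in Kcnip3 KO-5xFAD and 0.189 CPM in Kcnip3 KO, and the collagen receptor Lair1 rose by 1.02 ± 0.21. Sirpa, the receptor for CD47, which was the most abundant of the list at 467 CPM in Kcnip3 KO-5xFAD and 451 CPM in Kcnip3 KO, differed by 0.05 ± 0.12 and did not pass. With all 12 libraries Sirpa was at -0.02 ± 0.11 and Pecam1, the adhesion receptor CD31, at -0.07 ± 0.14.

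A list of leukocyte surface proteins was drawn up around Cd52. It held GPI-anchored and tetraspan proteins but also others, such as Ly86 and Ly9. Of its 12 tested genes 9 rose and all 12 were above 0, with a median of 1.83. Ly86, the partner of the Toll-like receptor homologue CD180, rose by 1.90 ± 0.19, Ly9 by 3.00 ± 0.34, the lipopolysaccharide co-receptor Cd14 by 2.11 ± 0.27 and the tetraspanin Cd37 by 1.56 ± 0.20. The fit of all 12 libraries gave a list median of 1.503 and no call, and Ly86 stood at 1.56 ± 0.41 and Ly6e at 0.60 ± 0.13. A list drawn up for metabolite and lipid receptors, the kind to which Gpr84 and Hcar2 belong, also held receptors of other kinds, such as C3ar1. Of its 11 tested genes 3 rose. They were the complement receptor C3ar1 (2.05 ± 0.35), the oxysterol receptor Gpr183 (1.83 ± 0.33) and the proton-sensing receptor Gpr65 (3.06 ± 0.68). The most abundant purinergic receptors of that list had smaller differences, at 0.23 ± 0.19 for P2rx4 and 0.53 ± 0.19 for P2ry13 without the 2 libraries and at 0.15 ± 0.16 for P2rx4 and 0.37 ± 0.19 for P2ry13 with all 12, and none of these passed.

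Slc15a3 belongs to the peptide and amino acid transporters of lysosomes. Of 10 other tested transporters of lysosomes and phagosomes, 1 rose, the metal transporter of phagosomes Slc11a1, by 1.92 ± 0.24, and the list median was 0.22. Slc15a4, the closest relative of Slc15a3, differed by 0.09 ± 0.16 and Slc36a1 by -0.34 ± 0.14, and neither passed. In the fit of all 12 libraries Slc15a4 was at 0.06 ± 0.14 and Slc36a1 at -0.39 ± 0.13.

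**Figure D5:**
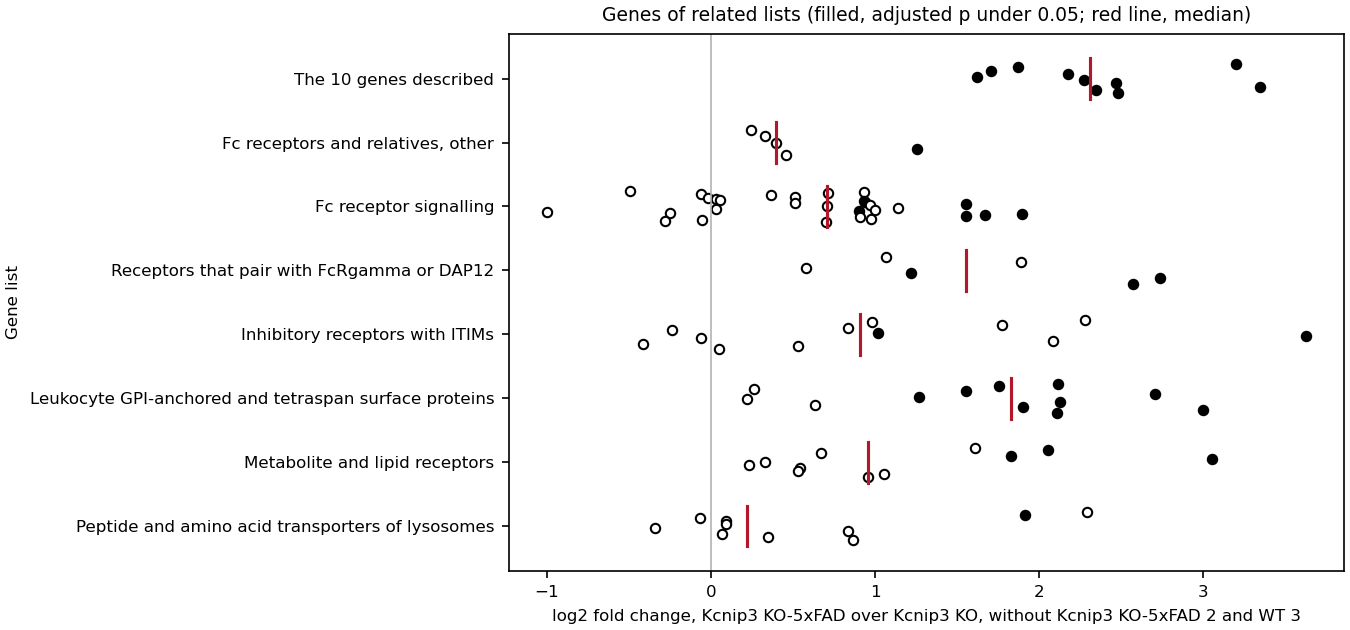
Log2 fold change of Kcnip3 KO-5xFAD over Kcnip3 KO without Kcnip3 KO-5xFAD 2 and WT 3 (horizontal axis) for the 10 genes and for the tested genes of 7 related lists, 1 point per gene, filled where the adjusted p by edgeR was under 0.05, with a red line at each median. The 10 genes are all filled, with a median of 2.31, and the lowest list median is 0.22, for lysosomal transporters.

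The genes whose pattern over the 12 libraries was most like that of Fcer1g were found by ranking the libraries for each gene and summing the absolute differences in rank, where 0 is the same order and 72 the largest sum possible. Among 15429 genes with a mean of at least 1 CPM the median sum was 48. The tetraspanin gene Cd37 came nearest with a sum of 2, followed by Laptm5, a lysosomal membrane protein of leukocytes, Thy1 and Trem2, each with a sum of 4. A further 11 genes tied at 6, namely Cebpa, Cryzl2, Cst7, Ctsa, Ctss, Eef1a1, Hpgds, Lag3, Ly86, Rnase4 and Tmem173. The other members that reached 1 CPM were less alike in order, with sums of 12 for Fcgr3 and Slc15a3, 16 for Fcgr1, Cd52, Gpr84 and Hcar2, 18 for Milr1 and 22 for Fcgr2b. Thy1, which the transgene cassettes carry, thus followed Fcer1g more closely over these libraries than any other of the 10 genes did.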

How the data were processed

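Total RNA from hippocampus was made into TruSeq mRNA libraries, per the labels' protocols, in 4 genotypes of 3 libraries. The deposited table used for the tests holds raw read counts for 55385 Ensembl genes; alignment to mm10 used HISAT2 2.1.0 and counting used featureCounts, as far as the submitters' processing notes list tools (also FastQC 0.11.9, edgeR 3.38.4 and R 4.2.1). A deposited table of log2 TPM, covering 16120 genes, was used for levels per gene length and for an alternative.

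The 10 genes and all lists were chosen with earlier results of these data known. A microglial marker is left out of its list and is not reported here. Symbols and positions came from GENCODE M21 on GRCm38, which matched 55144 genes, and promoters from RefSeq. A model with a mean for each genotype was fitted to all 12 libraries (edgeR 4.0.16, R 4.3.3), after filterByExpr and TMM scaling, and contrasts were tested by robust quasi-likelihood, with Benjamini-Hochberg adjustment over 15905 genes and calls at an adjusted p under 0.05. The fit was tested on simulated data. The common biological coefficient of variation was 0.144. Limits of 3 counts cover counting error only, since reads are not independent molecules. Errors are SD for levels and SE for log2 fold changes.

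Besides the 10 genes, Kcnip3 and Thy1 were named as checks of the labels. From each list the rule took up to 4 genes with the smallest p among those called in Kcnip3 KO-5xFAD against Kcnip3 KO or, where none was called, the 2 with the highest mean CPM. No gene was called there with 12 libraries, so the 2 are given, and the called genes come from the fit without 2 libraries. Likeness was taken to Fcer1g, with ties kept. Alternatives were DESeq2 1.42.0 and its size factors, library size only, no filter, 50 counts in 3 libraries, limma 3.58.1 (voom, and on log2 TPM), only the compared groups, the replicate number as a block, each library left out, and, added after seeing the data, 2 libraries left out.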

Additional observations from a re-analysis of the deposited data

How the results depend on the processing

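The counts for 5xFAD against WT, the difference by which the genes were taken to be chosen, are a description and support nothing. Of the 10 genes, 6 were under the threshold there with all 12 libraries (1.91% of genes higher) and 0 by limma on log2 TPM (6 of 16120 genes higher). The count was 0 to 9 when each library was left out in turn. It was 9 without Kcnip3 KO-5xFAD 2, where 2.45% of genes were called higher. It was 0 without WT 1, 5xFAD 2 or 5xFAD 3, where 1 gene of the whole table was called higher in each fit. It was also 0 without WT 3, WT 2 or Kcnip3 KO-5xFAD 3, where 12, 147 and 143 genes were called higher. In Kcnip3 KO-5xFAD against Kcnip3 KO, 0 were called with all 12 libraries (0.0% of genes higher), 9 with no filter on low counts (1.32%) and 5 by DESeq2 (0.698%). Leaving out each library gave 0 to 8, with 8 without Kcnip3 KO-5xFAD 2 (1.17%). The other fits of this kind called 0 of the 10, and at most 3 genes of the whole table higher. Without Kcnip3 KO-5xFAD 2 and WT 3, 10 were called (1.29%), and with the replicate block added 9 were (200 of 16076 genes higher). In Kcnip3 KO-5xFAD against 5xFAD, 3 were called lower with no filter (0.475% of genes lower) and 0 in the other settings. The fit with no filter called more genes than the filtered fit in every contrast. In the interaction it called 144 genes higher and 128 lower, against 0 and 0 with the filter. In Kcnip3 KO against WT and in the interaction, 0 were called in any setting run. In 5xFAD against WT and in Kcnip3 KO-5xFAD against Kcnip3 KO, every log2 fold change obtained kept its sign, but the stricter filter gave values for only 6 of the 10 genes in both, and the fit of only the compared groups for 9 in 5xFAD against WT and 6 in Kcnip3 KO-5xFAD against Kcnip3 KO.

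Same-numbered libraries did not deviate together: correlations of deviations over 18 pairs ran from -0.32 to 0.25, 6 were over 0.1, and 3 of 12 libraries correlated best with their own number. With the replicate block, 5 of the genes described here were called in 5xFAD against WT and 0 in each other contrast. Of the 15905 genes tested, 632 were then called higher in 5xFAD against WT, compared with 304 without the block. In Kcnip3 KO-5xFAD against Kcnip3 KO, 0 of all genes were called, so the 0 there does not set the described genes apart. Kcnip3 KO against WT had 4 genes higher and 4 lower, Kcnip3 KO-5xFAD against 5xFAD 6 and 4, and the interaction 1 and 0.

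Signs turned for small differences that passed no test. In Kcnip3 KO against WT, without Kcnip3 KO-5xFAD 2 and WT 3, and with the block added, the log2 values were 0.17 and 0.24 for Fcgr4, 0.19 and 0.31 for Milr1, 1.00 and 1.18 for Hcar2, and 0.20 and 0.27 for Slc15a3. Leaving out each library gave -1.15 to 0.17 for Fcgr4, -0.86 to 0.19 for Milr1, -0.66 to 0.16 for Gpr84, -1.64 to 1.00 for Hcar2 and -0.71 to 0.20 for Slc15a3. In Kcnip3 KO-5xFAD against 5xFAD, the same settings gave 0.0566 and 0.0678 for Fcgr1, 0.23 and 0.18 for Fcgr4 and, with the block, 0.01 (0.0087) for Slc15a3, and leaving out each library gave -0.88 to 0.0505 for Fcgr1 and -0.97 to 0.23 for Fcgr4.

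In the interaction, limma-voom, limma on log2 TPM and the replicate block gave -0.17, -0.10 and -0.02 (-0.0173) for Fcgr1 and -0.32, -0.23 and -0.04 (-0.0399) for Fcgr2b. Limma-voom and limma on log2 TPM gave -0.43 and -0.16 for Fcgr4, and -0.07 (-0.0665) and -0.13 for Cd52. Scaling by library size gave 0.03 (0.028) for Hcar2. Without the 2 libraries and with the block, Fcgr4 was at -0.06 (-0.058), and Gpr84 was at 0.01 (0.0138) and, with the block, 0.14. Leaving out each library gave -0.52 to 0.19 for Fcer1g, -0.51 to 0.42 for Fcgr1, -0.53 to 0.59 for Fcgr2b, -0.51 to 0.19 for Fcgr3 and -0.48 to 1.01 for Fcgr4. It gave -0.98 to 0.14 for Milr1, -0.20 to 0.93 for Cd52, -2.12 to 0.55 for Hcar2 and -0.76 to 0.29 for Slc15a3. The cause was not tested. Depth limits Fcgr4, Gpr84 and Hcar2 most, and a group left with a pair of libraries is assumed to vary like the others.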
